A study of Mus musculus with 18 samples.

Results

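Late-numbered miRNA precursors are the entries mmu-mir-N of the deposited mouse liver table with a number N of 3000 or higher. The table held 546 of them among 1234 RNAs, and 37 of the 546 were never above 0. Of the rest, 113 had a value above 0 in at least 9 of the 18 libraries. Leaving out mir-3084-1, mir-3084-2, mir-3108, mir-5098, mir-6236 and mir-6516, which the choice set aside, 107 precursors remained and are described here. The precursors were thus chosen by their measured RPM, through how many libraries were above 0, so how often and how high these precursors were detected is a description and carries no test. A precursor could pass through the 9 libraries of 1 method alone, and such a precursor had to differ between the methods, so counts and medians over the 107 also describe the choice. The same holds for single precursors that would have missed the 9 libraries had the group where they were high been above 0 as often as the group where they were low. In LCD-fed mice these were 5 of the 11 called higher and 11 of the 33 called lower in PANDORA-seq, and in HCD-fed mice 1 of 4 and 8 of 18. Against miRNA reads, a scale used further below, they were 7 of the 33 called higher in LCD-fed and 1 of the 12 in HCD-fed mice. Those among them that are named have their values and fitted differences given as a description, with no test.

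Liver RNA came from male C57BL/6 mice given as 8 weeks old. Of the 9 mice, 5 (mice 1 to 5) ate a diet with 0.02% cholesterol (LCD, low) and 4 (mice 15 to 18) one with 0.5% (HCD, high). The time on the diet is given as 4, 8 or 9 weeks in different parts of the study's descriptions. RNA of each mouse was sequenced by PANDORA-seq, in which RNA is treated with the kinase T4PNK and then the demethylase AlkB, and by traditional-seq, which uses untreated RNA of the same mouse.

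A miRNA is cut from a hairpin precursor, mostly by Drosha and then Dicer, and carries a 5′ phosphate and a 3′ hydroxyl, the ends that adapter ligation needs. Fragments of rRNA and tRNA often carry other ends or methyl groups, so that T4PNK and AlkB make more of them visible and the miRNA share of the reads becomes smaller. Numbers are given to miRNAs in the order of their registration, so high numbers mostly stand for entries found late by deep sequencing, many of which are rare. Bases 2 to 8 of a mature miRNA, the seed, do most of the pairing with target mRNAs.

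Values are RPM (reads per 1000000 reads of the library). Inferred library totals ran from 1934330 to 25488292 reads, so 1 read was worth 0.0392 to 0.517 RPM, and the 1234 RNAs held 777471 to 958480 RPM. The hepatocyte miRNA mir-122 was at 180426 to 385545 RPM in the LCD traditional-seq libraries. All miRNA reads together fell 23.2-fold in PANDORA-seq in LCD-fed mice (from a mean of 638942 to 27596 RPM) and 7.67-fold in HCD-fed mice (from 662385 to 86372 RPM), which is the loss that a single precursor is set against here. The values of every library differed from those of each other library.

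Mature sequences were found in RefSeq (GRCm38.p6) for 93 of the 107 precursors. The sequences are written 5′ to 3′ with the seed in capitals. The first set is shown because 3 precursors, mir-3962, mir-3970 and mir-3965, hold a stretch that is nearly that of an abundant liver miRNA of a lower number. For mir-3970 no mature entry was matched, so the stretch of its hairpin (chromosome 19, 33157121 to 33157138, plus strand) is printed, with the differing base in capitals.
let-7g-5p: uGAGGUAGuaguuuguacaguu
miR-3962: aGGUAGUAguuuguacauuu
let-7i-5p: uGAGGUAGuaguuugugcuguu
mir-3970 hairpin stretch: ugagguUguaguuugugc
miR-21a-5p: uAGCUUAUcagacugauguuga
miR-3965: uGCUUAUCagccugauguu

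Positions are counted from 1 at the 5′ end of the lower-numbered miRNA. Over the 20 bases from position 3 to position 22 of let-7g-5p, miR-3962 held 19 equal bases and the difference G20U. The mir-3970 stretch held 17 of the first 18 bases of let-7i-5p, with the difference A7U. Over the 19 bases from position 2 to position 20 of miR-21a-5p, miR-3965 held 17 equal bases and the differences A2U and A12C. These 3 resemblances were looked for over 18-base windows of 87 hairpins, allowing 1 mismatch, after the values were known. The reads were assigned by the authors with 1 mismatch allowed.

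The second set is shown because these precursors had more RPM in PANDORA-seq. miR-3470b carries the same 21 letters as stretches of 590 other annotated genes on their own strand, whereas miR-5119 and miR-6240 had no exact match in the 55450 genes searched. The search covered annotated GENCODE M21 transcripts only. Whether miR-5119 or miR-6240 resembles rRNA or tRNA sequences outside that annotation was not tested.
miR-3470b: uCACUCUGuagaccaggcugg
miR-5119: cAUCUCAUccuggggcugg
miR-6240: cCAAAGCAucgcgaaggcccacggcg
miR-3070-5p: aGCCCCUGaccuugaaccuggga

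The third set is shown because its mature sequences lie inside another annotated small RNA. miR-3535 lies in the snoRNA gene Gm24148 within Ncl, the nucleolin gene. Both arms of mir-3069 lie in Scarna13, a small Cajal body RNA that guides modification of other RNAs, and miR-5121 lies in the snoRNA Snord33.
miR-3535: uGGAUAUGaugacugauuaccugaga
miR-3069-5p: uUGGCAGUcaagauauuguuuagc
miR-3069-3p: uUGGACACuaaguacugccaca
miR-5121: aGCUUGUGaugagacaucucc

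The fourth set belongs to precursors within introns that lost RPM in PANDORA-seq.
miR-3068-5p: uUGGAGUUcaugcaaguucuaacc
miR-3068-3p: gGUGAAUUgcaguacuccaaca
miR-7015-5p: uCUGUGCAguaggcuguggguuc
miR-7015-3p: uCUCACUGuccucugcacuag
miR-3105-5p: aGAGCAAGcccguaagcagcgu
miR-3105-3p: aCUGCUUAugagcuugcacucc

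The last set belongs to the 3 precursors that differed by diet.
miR-7030-5p: uGGGGAGGuggcugugcuaguc
miR-7030-3p: cUUGCUCUguuaucucuccag
miR-3474: cCCUGGGAggagacguggauuc
miR-3473g: cAAAAGUGaggcuggggaga

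Seeds were shared by few of the 139 mature sequences. miR-3473b and miR-3473e share GGCUGGA, miR-7018-3p and miR-7068-3p share CACCCUG, and the 2 copies each of mir-3070 and mir-7676 share the seeds of both arms. The copies mir-7676-1 and mir-7676-2 had equal values in every library and cannot be told apart, and 44 precursors had a mature sequence for both arms, whose reads are summed in 1 value.

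Most of the 107 precursors were rare. The mean over the 18 libraries had a median of 0.346 RPM and ran from 0.0685 to 83.0 RPM, with 86 precursors under 1 RPM and 4 at 10 RPM or more. By number, 36 fell in the 3000s, 17 in the 5000s, 23 in the 6000s, 20 in the 7000s and 11 in the 8000s. Detection was uneven: 11 precursors were above 0 in all 18 libraries and 20 in 9 of them. As many as 75 were above 0 in more traditional-seq than PANDORA-seq libraries, 15 in more PANDORA-seq libraries and 17 in equally many. A library held between 33 and 105 of the 107, and both ends of that range were HCD-fed mice. One mean rests on 1 library: mir-8117, chosen after its values were seen, was at 51.1 RPM in the HCD traditional-seq library of mouse 16 and at 0.118, 0.0599 and 0.859 RPM in the other 3 libraries of that group. The precursors at the edge of the choice differed little in level. Just inside, with 9 libraries above 0, mir-7224 had a mean of 0.271 RPM, mir-6539 0.242 RPM and mir-3070-1 0.203 RPM. Just outside, with 8, mir-6390 had 0.654 RPM, mir-3964 0.588 RPM and mir-7115 0.15 RPM.

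The summed level of the 107 precursors overlapped between the methods while the mean of all miRNA reads fell. In LCD-fed mice the sum was 274 ± 85.4 RPM (SD, n = 5) in traditional-seq and 215 ± 93.4 RPM (SD, n = 5) in PANDORA-seq, with ranges of 187 to 374 and 137 to 348 RPM that overlap. In HCD-fed mice it was 204 ± 54.3 RPM (SD, n = 4) in traditional-seq and 153 ± 45.5 RPM (SD, n = 4) in PANDORA-seq, and the ranges of 143 to 268 and 106 to 202 RPM overlap too. As a share of miRNA reads the precursors made 0.0435% ± 0.0153 (SD, n = 5) in the LCD traditional-seq libraries and 1.04% ± 0.809 (SD, n = 5) in the LCD PANDORA-seq libraries. The HCD shares were 0.0323% ± 0.013 (SD, n = 4) and 0.201% ± 0.0883 (SD, n = 4). The sum rests on few members, since mir-3535, mir-3470b and mir-3970 held 63.95% of it and the 6 highest 74.0%.

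**Figure D1:**
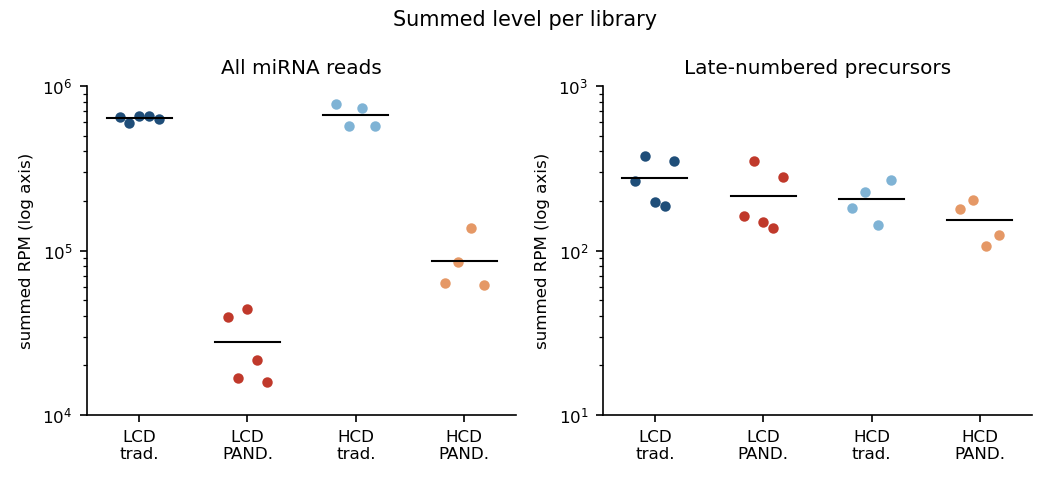
Summed RPM per library on log axes for all miRNA reads (left) and for the 107 late-numbered precursors (right), each point 1 library and each line the group mean. All miRNA reads fell 23.2-fold (LCD) and 7.67-fold (HCD) in PANDORA-seq, while the summed levels of the 107 overlap between the methods in both diets.

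The methods were compared first on the RPM scale, which asks how the share of all reads of a precursor differs. In LCD-fed mice limma called 11 of the 107 precursors higher and 33 lower in PANDORA-seq at an adjusted p under 0.05, against 16% higher and 56.7% lower among all 524 RNAs tested. Their median log2 difference was -0.12, against -0.84 over all RNAs tested. Among the 327 lower-numbered miRNAs and let-7, 252 were lower and 11 higher with a median of -2.55. Among 51 cytosolic tRNA families 43 were higher with a median of 2.42, and all 8 rRNAs were higher with a median of 1.27. In HCD-fed mice 4 of the 107 were called higher and 18 lower, against 11.1% and 46.2% of all RNAs, with a median of -0.16 against -0.52. The medians there were -1.58 for lower-numbered miRNAs, 2.75 for cytosolic tRNA families and 1.30 for rRNAs. The late-numbered precursors therefore lay between these classes in both diets, with most of them near 0 on this scale.

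The size of the difference went with level. Differences are of log2(RPM + 1), which understates the change of rare RNAs, and the 86 precursors under 1 RPM had a median of -0.10 in LCD-fed mice beside -0.29 for the 99 lower-numbered miRNAs under 1 RPM. Between 1 and 10 RPM the medians moved apart, at -0.64 for 17 late-numbered precursors and -2.23 for 92 lower-numbered miRNAs. In HCD-fed mice the same bins had medians of -0.12 and -0.11 under 1 RPM, and of -0.45 and -1.68 between 1 and 10 RPM.

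The split between higher and lower rests on the scaling. With TMM scaling, which sets the bulk of the RNAs to no change, 27 precursors were higher and 7 lower in LCD-fed mice, and 11 higher and 9 lower in HCD-fed mice. TMM moved the median of all RNAs from -0.84 to -0.12 (LCD) and from -0.52 to -0.08 (HCD). The calls also rest on rare RNAs being kept: with at least 1 RPM asked in at least 5 libraries, 4 precursors were higher and 7 lower in LCD-fed mice. Single libraries moved the smaller counts: 7 were higher in LCD-fed mice without the PANDORA-seq library of mouse 2 or the traditional-seq library of mouse 3 or 4. In HCD-fed mice 7 were higher without the PANDORA-seq library of mouse 17, and 2 without that of mouse 18 or the traditional-seq library of mouse 15, 16 or 17.

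**Figure D2:**
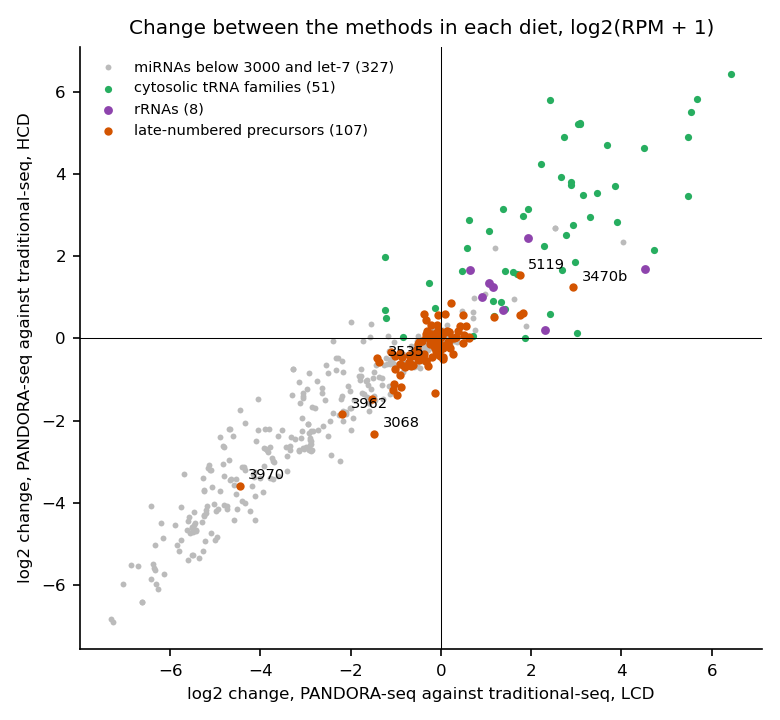
Log2 difference between PANDORA-seq and traditional-seq on the log2(RPM + 1) scale in LCD-fed (x axis) and HCD-fed mice (y axis), each point 1 RNA, coloured by class. The late-numbered precursors gather near 0 (medians -0.12 and -0.16), with mir-3970 down among the lower-numbered miRNAs and mir-3470b and mir-5119 up among the tRNA families, while mir-3535 and, in LCD-fed mice, mir-3068 turn positive under TMM scaling.

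On RPM as deposited, the largest falls in LCD-fed mice were those of mir-3970 and mir-3962, both of which resemble a let-7 miRNA. The precursor mir-3970 (chromosome 19, 33157112 to 33157201, plus strand, GRCm38) lies antisense in an intron of Rnls, the gene of renalase. In LCD-fed mice it had 19, 49.1, 32.3, 29.4 and 70.4 RPM in the traditional-seq libraries and 1.38, 0.518, 0.363, 0.618 and 0.778 RPM in the PANDORA-seq libraries. Every PANDORA-seq library was lower than every traditional-seq library, and mir-3970 fell by 4.46 ± 0.37 on the log2 scale (SE, limma adjusted p = 1.39e-07). In HCD-fed mice it had 25.6, 17.9, 12.5 and 12.9 RPM in traditional-seq and 0.582, 0.374, 0 and 1.12 RPM in PANDORA-seq. The groups again did not overlap, with a difference of -3.58 ± 0.45 (SE, limma adjusted p = 5.97e-05).

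The value of mir-3970 was set beside that of let-7i. It stood at 0.663% to 1.25% of the let-7i value in the LCD traditional-seq libraries and at 0.692% to 0.84% in the HCD traditional-seq libraries. In PANDORA-seq the share was 0.349% to 0.85% (LCD) and 0 to 0.619% (HCD). The let-7i precursor itself differed by -5.21 ± 0.40 (SE, limma adjusted p = 7.76e-08) in LCD-fed mice and by -4.17 ± 0.40 (SE, limma adjusted p = 1.33e-05) in HCD-fed mice. Of the mir-3970 values under 20 reads, 8 of 8 were not whole reads, within 0.02 of a read. Whether let-7i reads entered the value of mir-3970 was not tested.

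The precursor mir-3962 (chromosome 1, 194822001 to 194822064, plus strand) lies in no annotated gene. It had 6.69, 2.92, 5.76, 4.76 and 4.42 RPM in the LCD traditional-seq libraries and 0.928, 0.256, 0.0597, 0.0838 and 0.178 RPM in the LCD PANDORA-seq libraries. All PANDORA-seq values were lower, the highest being that of mouse 1, and the difference was -2.18 ± 0.26 (SE, limma adjusted p = 3.80e-06). In HCD-fed mice the values were 3.8, 2.32, 3.35 and 1.9 RPM and 0, 0.0477, 0 and 0.173 RPM, without overlap. The difference there was -1.84 ± 0.24 (SE, limma adjusted p = 6.45e-05), and, with the summed reads rounded to whole ones, 188 over the traditional-seq libraries stood against 1 in PANDORA-seq, a ratio of RPM of 67.2 with a 95% counting interval of 11.9 to 2670. Of its values under 20 reads, 11 of 12 were not whole. Its share of the let-7g value was 0.0234% to 0.0555% (LCD traditional-seq) and 0.0554% to 0.452% (LCD PANDORA-seq). In HCD-fed mice it was 0.0435% to 0.0816% in traditional-seq and 0 to 0.119% in PANDORA-seq, which overlap. The let-7g precursor differed by -6.88 ± 0.37 (SE, limma adjusted p = 4.88e-09) in LCD-fed and -5.51 ± 0.45 (SE, limma adjusted p = 5.98e-06) in HCD-fed mice, and the part of let-7g reads in mir-3962 was not tested.

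Other losses belonged to precursors with no such resemblance. The precursor mir-7015 (chromosome 4, 120973259 to 120973322, minus strand) lies in an intron of Smap2, which encodes an Arf GTPase-activating protein. It had 1.03, 2.76, 3.004, 1.67 and 3.13 RPM in LCD traditional-seq and 0, 0.18, 0.196, 0 and 0.178 RPM in LCD PANDORA-seq, without overlap, and differed by -1.53 ± 0.21 (SE, limma adjusted p = 2.05e-05). In HCD-fed mice 2.39, 1.32, 2.22 and 5.79 RPM stood against 0.56, 0.859, 0 and 0 RPM, with a difference of -1.47 ± 0.37 (SE, limma adjusted p = 0.00542) that TMM scaling took out of the calls (adjusted p = 0.107). The precursor mir-3105 (chromosome 7, 144009254 to 144009338, plus strand) lies in an intron of Shank2, a gene of a synaptic scaffold protein. It had 2.58, 2.56, 1.32, 0.716 and 2.61 RPM in LCD traditional-seq and 0.398, 0, 0, 0 and 0 RPM in LCD PANDORA-seq. Its only PANDORA-seq value above 0 there, in mouse 1, was a single read, and the fitted difference was -1.41 ± 0.23 (SE), 62 reads against 1. The ratio of RPM was 41.8 with a 95% counting interval of 7.23 to 1680. In HCD-fed mice the values were 0.667, 0.396, 0.779 and 0.536 RPM and 0, 0.668, 0 and 0 RPM, which overlap through mouse 16, and the difference of -0.48 ± 0.18 (SE) missed the threshold with the mouse as a block (limma adjusted p = 0.0604). As mir-3105 was above 0 in 11 libraries, 9 of them traditional-seq, both differences are descriptions.

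The precursor mir-3068 (chromosome 12, 87437679 to 87437757, minus strand) lies in an intron of Alkbh1, which encodes an AlkB homolog of the mouse. It had 9.82, 21.1, 9.61, 7.63 and 19 RPM in LCD traditional-seq and 5.97, 5.77, 0.881, 5.7 and 3.38 RPM in LCD PANDORA-seq. All PANDORA-seq libraries were lower, with a difference of -1.48 ± 0.43 (SE, limma adjusted p = 0.00795) on RPM as deposited, which was 0.63 and no longer called under TMM scaling (adjusted p = 0.224). Under the HCD it had 9.3, 6.87, 3.35 and 17 RPM in traditional-seq and 1.12, 0.668, 0.713 and 0.702 RPM in PANDORA-seq. The groups did not overlap, and the difference was -2.32 ± 0.48 (SE, limma adjusted p = 0.00158) and stayed called under every alternative run.

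Called lower in both diets were 15 precursors, 14.0% of the 107, against 44.5% of all 524 RNAs tested. They were 45.5% of the 33 called lower in LCD-fed and 83.3% of the 18 in HCD-fed mice, against 78.5% and 96.3% for all RNAs. LCD-fed and HCD-fed mice share no library. Besides the 5 just described they were mir-3066, mir-3073b, mir-5132, mir-5620, mir-6911, mir-6972, mir-6978, mir-6979, mir-7219 and mir-7240. Some of the 15 reached 9 libraries only through the traditional-seq group of a diet, and their calls there are descriptions. These were mir-3066, mir-3073b, mir-3105, mir-6972 and mir-7219 in both diets, mir-6979 in LCD-fed mice and mir-6911 in HCD-fed mice. Among them mir-6978 lies in an intron of C3 and mir-6972 in an intron of Cfb, complement genes that hepatocytes express strongly. They are named here after their values were seen. The precursor mir-6978 had 1.03, 1.18, 2.7, 1.55 and 2.87 RPM in LCD traditional-seq and 0, 0.18, 0.294, 0.503 and 0.712 RPM in LCD PANDORA-seq. It differed by -1.07 ± 0.23 (SE, limma adjusted p = 9.26e-04). The precursor mir-6972 had 1.55, 0.984, 1.62, 1.13 and 0.261 RPM in LCD traditional-seq, where mouse 5 was lowest. In LCD PANDORA-seq it had 0, 0, 0, 0 and 0.178 RPM, without overlap, and a fitted difference of -0.98 ± 0.19 (SE), a description, since 9 of its 11 libraries above 0 were traditional-seq.

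In the other direction, mir-3470b and mir-3470a had the largest log2 differences called in LCD-fed mice on RPM as deposited, and neither was called in HCD-fed mice. The precursor mir-3470b (chromosome 16, 44013852 to 44013977, plus strand) lies antisense in an intron of Gramd1c, a gene of a cholesterol transfer protein. In LCD-fed mice it had 13.9, 12.8, 5.6, 4.56 and 12.2 RPM in traditional-seq and 37.8, 169.8, 52.2, 49.7 and 140.2 RPM in PANDORA-seq. Every PANDORA-seq library was higher, those of mice 2 and 5 most, and it rose by 2.93 ± 0.47 (SE, limma adjusted p = 8.19e-05) on the log2 scale. In HCD-fed mice it had 9.76, 18.8, 8.97 and 14.3 RPM in traditional-seq and 65, 65.1, 13 and 15.7 RPM in PANDORA-seq. Mice 15 and 16 were high and mice 17 and 18 were within the traditional-seq range, and the difference of 1.24 ± 0.61 (SE, limma adjusted p = 0.105) was not called.

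The precursor mir-3470a (chromosome 6, 83090311 to 83090387, minus strand) lies in no annotated gene and has no mature entry matched here. It had 3.79, 4.72, 3.06, 2.59 and 5.87 RPM in LCD traditional-seq and 5.18, 36.5, 13.5, 12.6 and 33.1 RPM in LCD PANDORA-seq. The groups overlap through mouse 1, and it rose by 1.83 ± 0.47 (SE, limma adjusted p = 0.00343). In HCD-fed mice 3.45, 6.21, 2.82 and 6.12 RPM stood against 12.7, 21.1, 1.6 and 5.27 RPM, with a difference of 0.63 ± 0.67 (SE, limma adjusted p = 0.442) that was not called.

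The precursor mir-5119 (chromosome 11, 98262606 to 98262662, plus strand) lies in an intron of Cdk12, which encodes a kinase of RNA polymerase II. It was the one precursor called higher in both diets, 0.935% of the 107, against 8.97% of all RNAs tested. That is 9.09% of the 11 called higher in LCD-fed and 25% of the 4 in HCD-fed mice, against 56.0% and 81.0% for all RNAs. In LCD-fed mice it had 0.517, 0.197, 0.901, 0.417 and 0.782 RPM in traditional-seq and 5.57, 2.53, 4.11, 5.2 and 4.09 RPM in PANDORA-seq. The groups lie far apart, and it rose by 1.75 ± 0.24 (SE, limma adjusted p = 1.97e-05). In HCD-fed mice 0.471, 0.661, 0.18 and 0.644 RPM stood against 3.64, 3.15, 0.357 and 11.9 RPM, with mouse 17 within the traditional-seq range. The rise was 1.54 ± 0.57 (SE, limma adjusted p = 0.0374), and leaving out any HCD library other than the PANDORA-seq library of mouse 17 ended the call (adjusted p up to 0.109 over the alternatives run).

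The precursor mir-3965 (chromosome 5, 134326454 to 134326522, plus strand) lies in no annotated gene and resembles miR-21a. In LCD-fed mice it had 2.33, 2.49, 2.09, 1.32 and 1.91 RPM in traditional-seq and 9.55, 22.4, 3.03, 2.23 and 3.38 RPM in PANDORA-seq. Mice 1 and 2 were far above the rest, and the rise of 1.17 ± 0.49 (SE, limma adjusted p = 0.0453) lost its call without the PANDORA-seq library of mouse 1 or of mouse 2 or any 1 traditional-seq library (adjusted p up to 0.103 over the alternatives run). In HCD-fed mice 2.4, 2.68, 1.25 and 1.56 RPM stood against 9.61, 11.6, 0 and 1.21 RPM, again with 2 high mice, and a difference of 0.51 ± 0.75 (SE, limma adjusted p = 0.586) that was not called. For comparison, mir-21a, which it resembles, differed by -6.14 ± 0.43 (SE, limma adjusted p = 3.09e-08) in LCD-fed and by -5.73 ± 0.57 (SE, limma adjusted p = 1.46e-05) in HCD-fed mice. The value of mir-3965 was 0.00295% to 0.0112% of that of mir-21a in LCD traditional-seq and 0.682% to 3.37% in LCD PANDORA-seq. In HCD-fed mice the share was 0.00533% to 0.0105% in traditional-seq and 0 to 3.5% in PANDORA-seq, which overlap.

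**Figure D3:**
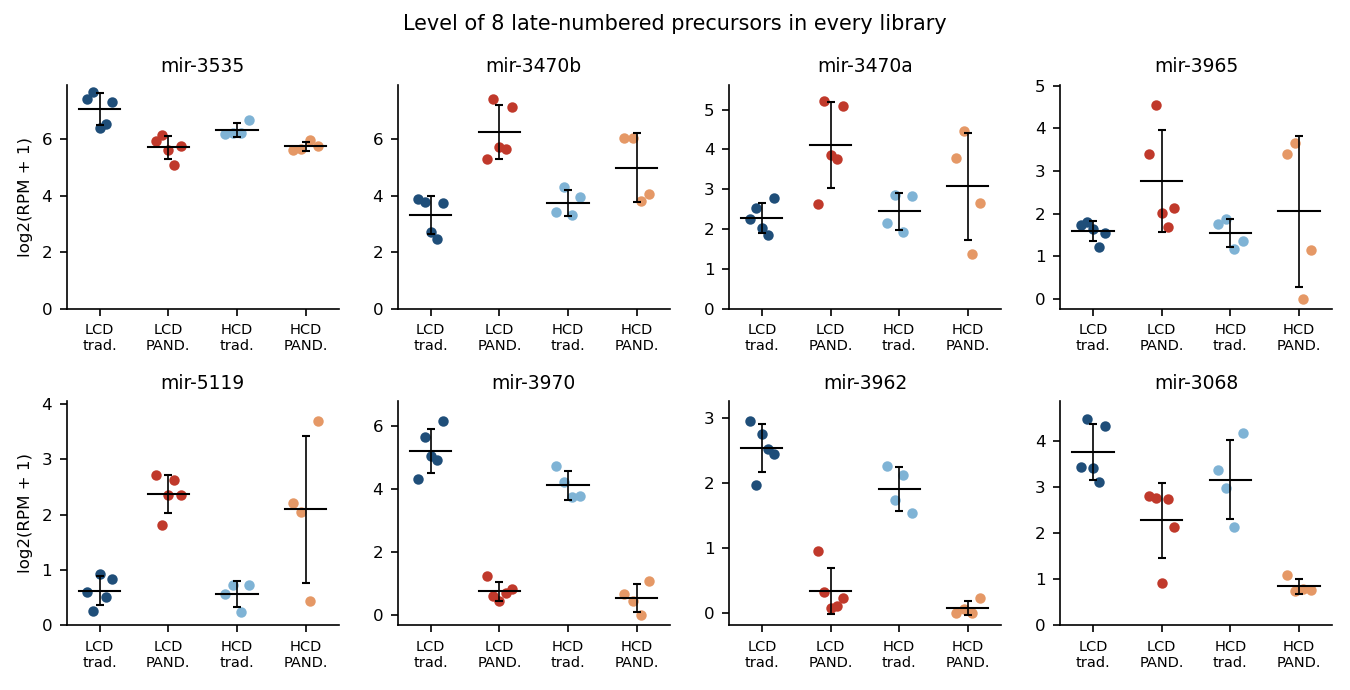
Level of 8 late-numbered precursors as log2(RPM + 1) in every library, by diet and method (trad., traditional-seq; PAND., PANDORA-seq), with bars at the mean ± SD of the log2 values (n = 5 LCD, n = 4 HCD). Levels of mir-3470b and mir-5119 are higher and those of mir-3970 and mir-3962 lower in every LCD PANDORA-seq library on RPM as deposited, while the lower levels of mir-3535 and, in LCD-fed mice, mir-3068 turn positive under TMM scaling.

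The other gains were of rarer precursors. The precursor mir-6240 (chromosome 5, 114851948 to 114852064, plus strand), in no annotated gene, had 0, 0, 0.18, 0.0596 and 0 RPM in LCD traditional-seq and 15.5, 0.541, 1.37, 3.85 and 0.89 RPM in LCD PANDORA-seq. The groups did not overlap, mouse 1 was far above the others, and the rise was 1.76 ± 0.51 (SE, limma adjusted p = 0.00773). Under the HCD it had 0.196, 1.06, 0.0599 and 0.107 RPM in traditional-seq and 0, 2.2, 0 and 3.51 RPM in PANDORA-seq, which overlap, and the difference of 0.58 ± 0.48 (SE, limma adjusted p = 0.319) was not called. The copies mir-3070-1 (chromosome 12, 109587943 to 109588031, plus strand) and mir-3070-2 (chromosome 12, 109588592 to 109588680, plus strand) had the same LCD values. Each was at 0 in all 5 LCD traditional-seq libraries and at 0.199, 0.722, 0.147, 0.335 and 1.78 RPM in LCD PANDORA-seq, 18 reads for each copy. Against a floor of 3 reads over the traditional-seq group, that is at least 8.89-fold higher, with a fitted difference of 0.63 ± 0.21 (SE). This is a description, since both copies reached 9 libraries only through those 5.

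Of those called in HCD-fed mice, mir-7063 (chromosome 7, 141620701 to 141620791, plus strand) lies in an intron of Ap2a2, which encodes an adaptor of clathrin-mediated endocytosis. It had 0.196, 0, 0 and 0 RPM in HCD traditional-seq and 0.56, 0.286, 1.43 and 1.64 RPM in HCD PANDORA-seq. It was the 1 precursor whose HCD PANDORA-seq values were all above the traditional-seq values, with a fitted difference of 0.86 ± 0.22 (SE), a description, since 4 of its 10 libraries above 0 were these. In LCD-fed mice its difference was 0.21 ± 0.12 (SE, limma adjusted p = 0.118). The precursor mir-3069 had 0.118, 0.396, 0.12 and 0.107 RPM in HCD traditional-seq and 1.12, 0.763, 0.357 and 0.936 RPM in HCD PANDORA-seq, which overlap, and rose by 0.59 ± 0.17 (SE, limma adjusted p = 0.0115). The precursor mir-7030, whose values stand with the diet results, had a fitted difference of 0.57 ± 0.21 (SE). It is a description too, since 4 of its 11 libraries above 0 were those of HCD PANDORA-seq. It is not the precursor counted at the start, as most HCD traditional-seq libraries were above 0. Its call was lost without PANDORA-seq mouse 15, 17 or 18 or traditional-seq mouse 15, 16 or 17 (limma adjusted p up to 0.18 over the alternatives run). Whether these rises differ between the diets was tested only as the difference of diet effects between the methods, given with the diet results.

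Without regard to calls, PANDORA-seq and traditional-seq values did not overlap for 27 precursors in LCD-fed mice, 5 of them above and 22 below, against 12.4% above and 52.1% below among all 524 RNAs tested. In HCD-fed mice 1 was above and 13 below, against 9.54% and 44.7%.

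The most abundant precursor was mir-3535 (chromosome 1, 86351981 to 86352127, minus strand). Its host Ncl encodes nucleolin, a nucleolar protein of ribosome assembly, and its mature sequence lies in the snoRNA Gm24148. In LCD-fed mice it had 169, 201, 83.5, 91.9 and 158 RPM in traditional-seq and 59.3, 69.5, 47.6, 33.2 and 52.9 RPM in PANDORA-seq. All PANDORA-seq libraries were lower, with a difference of -1.36 ± 0.32 (SE, limma adjusted p = 0.00161) on RPM as deposited, but under TMM scaling it was 1.07 higher and called so (adjusted p = 0.0026). In HCD-fed mice it had 70.6, 73.5, 73.1 and 100.4 RPM in traditional-seq and 48.4, 48.7, 61 and 52.7 RPM in PANDORA-seq, without overlap. The difference of -0.57 ± 0.34 (SE, limma adjusted p = 0.175) was not called on RPM and was 0.94 under TMM (adjusted p = 0.027).

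Setting each precursor against miRNA reads asks which kept the loss of miRNA reads as a whole. Here values were RPM with the miRNA reads alone as the total, with 10 added before the logarithm, near 1 read of an LCD PANDORA-seq library on this scale. In traditional-seq 1 read was worth only 0.0905 to 0.794 (LCD) and 0.0506 to 0.232 (HCD) on it. Rare precursors lay well under the 10 added there and had little room to fall, so few of them could be called lower. In LCD-fed mice 33 of the 107 were higher and 0 lower, against 31.3% and 9.54% of all RNAs tested. At an unadjusted p under 0.05, 49 (45.8%) differed in either direction, against 49.4% of all RNAs tested. The median of the 107 was 0.64, and it was 0.00 for lower-numbered miRNAs, 5.87 for rRNAs and 6.71 for cytosolic tRNA families. In HCD-fed mice 12 were higher and 1 lower, against 22.3% and 10.9%, with a median of 0.19 beside -0.04, 4.30 and 5.15 for the same classes. By share of all RNAs tested, which include tRNA families and rRNAs, the members called higher were close to the background in LCD-fed mice and below it in HCD-fed mice. Of the 327 lower-numbered miRNAs and let-7, 43 (13.1%) were higher and 50 (15.3%) lower in LCD-fed mice, and 30 (9.17%) and 56 (17.1%) in HCD-fed mice. Between 1 and 10 RPM, 10 of 17 late-numbered precursors and 12 of 92 lower-numbered miRNAs were higher in LCD-fed mice. In HCD-fed mice these were 2 of 17 and 8 of 92. The HCD count of 12 rose to 24 without the PANDORA-seq library of mouse 17 and fell to 3, 4 or 7 without the traditional-seq library of mouse 15, 16 or 17.

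Crossing the 2 scales sorted the precursors. In LCD-fed mice 11 rose on both scales: mir-3070-1, mir-3070-2, mir-3470a, mir-3470b, mir-3471-2, mir-3965, mir-5119, mir-6240, mir-6960, mir-7676-1 and mir-7676-2. Of these, mir-3070-1, mir-3070-2, mir-6960, mir-7676-1 and mir-7676-2 reached 9 libraries only through the LCD PANDORA-seq group, so their places are descriptions. Another 18 were not called on RPM but were higher against miRNA reads, among them mir-3473a, mir-3473b, mir-3473d, mir-3473e and mir-3473f of the mir-3473 family. The 4 precursors mir-3068, mir-3535, mir-5128 and mir-5132 fell on RPM but less than miRNA reads did. Lower on RPM and not called against miRNA reads were 29, and 45 were called on neither scale. In HCD-fed mice 4 rose on both scales (mir-3069, mir-5119, mir-7030 and mir-7063), the places of mir-7030 and mir-7063 being descriptions. A further 8 were higher only against miRNA reads, 17 were lower on RPM and not called against miRNA reads, and 77 were called on neither. The precursor mir-3962 was the 1 that fell on both scales. Higher against miRNA reads in both diets were mir-3069, mir-3470a, mir-3470b, mir-3471-2, mir-3535, mir-5119 and mir-8114, 7 precursors (6.54%, against 19.5% of all RNAs tested) or 21.2% of the LCD and 58.3% of the HCD calls. On this scale several HCD calls rest on single libraries. Those of mir-5119 and mir-3470a were lost without any 1 HCD library other than the PANDORA-seq library of mouse 17 (limma adjusted p up to 0.12 and 0.0954 over the alternatives run). The call of mir-7063 was lost without any 1 traditional-seq library, that of mir-7030 without the traditional-seq library of mouse 15, 16 or 17, and those of mir-3069 and mir-3962 without that of mouse 15.

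Named values on this scale show the spread. The precursor mir-3470b was higher against miRNA reads by 6.92 ± 0.67 (SE, limma adjusted p = 5.38e-06) in LCD-fed and 3.72 ± 0.74 (SE, limma adjusted p = 0.00714) in HCD-fed mice, beside rRNA medians of 5.87 and 4.30. For mir-3535 the differences were 3.22 ± 0.43 (SE, limma adjusted p = 8.65e-05) and 2.32 ± 0.37 (SE, limma adjusted p = 0.00194). For mir-3970 they were -0.84 ± 0.45 (SE, limma adjusted p = 0.158) and -1.08 ± 0.40 (SE, limma adjusted p = 0.0665), neither called. The differences of mir-7015, 0.09 ± 0.24 (SE, limma adjusted p = 0.794) and -0.04 ± 0.29 (SE, limma adjusted p = 0.919), were near 0, but a p that misses the threshold does not show that its loss was that of all miRNAs. The precursor mir-3068 differed between the diets in its call, at 2.41 ± 0.64 (SE, limma adjusted p = 0.0104) in LCD-fed and -0.20 ± 0.37 (SE, limma adjusted p = 0.72) in HCD-fed mice. For mir-3962 the LCD difference was 0.15 ± 0.29 (SE, limma adjusted p = 0.72) and the HCD one -0.40 ± 0.10 (SE, limma adjusted p = 0.0188).

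Depth sets how far this sorting goes. Had each precursor lost reads as all miRNA reads did, 99 of the 107 would have under 3 reads over the 5 LCD PANDORA-seq libraries together, and 84 under 3 over the 4 HCD ones. The median of such expected reads was 0.457 (LCD) and 1.09 (HCD), and the median observed was 6.0 and 5.0. Observed reads were above the expected ones for 99 of the 107 in LCD-fed and 89 in HCD-fed mice. Of those with at least 3 expected reads, 6 of 8 and 16 of 23 were above. For mir-3535 181 reads were expected and 1515 seen in LCD-fed mice, and for mir-3470b 12.7 and 2654. In contrast mir-3970 had 51.7 expected and 18.1 seen, and mir-3962 had 6.33 expected and 5.86 seen. For the other 99 a miRNA-like loss in LCD-fed mice was not separable from no reads at this depth where few reads were seen. Under 3 reads were seen for 32 of the 107 there. Some of the 99 had far more than expected, such as mir-5119 with 0.726 expected and 124 seen and mir-6240 with 0.062 and 84.

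**Figure D4:**
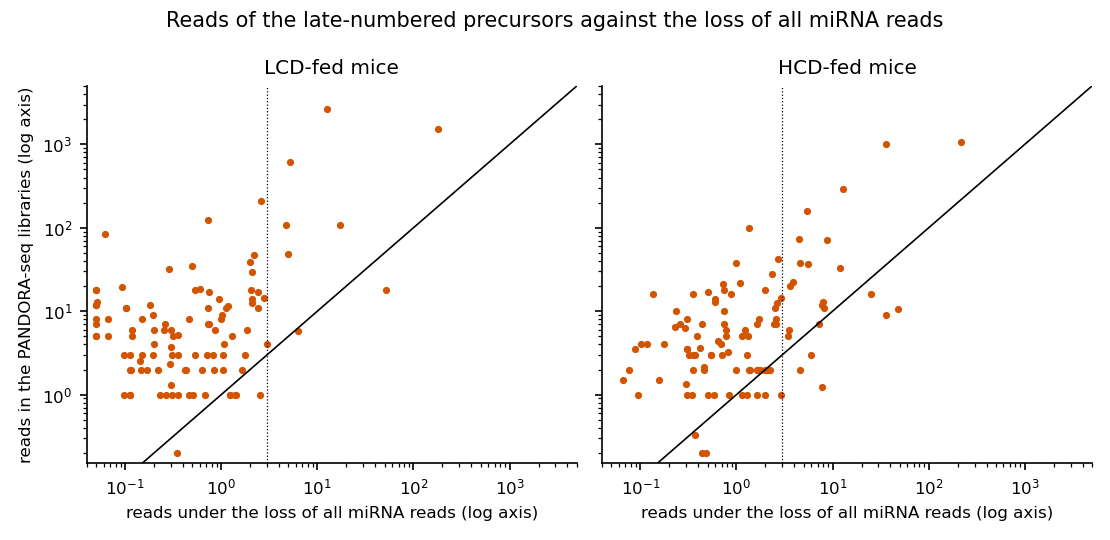
Reads of each of the 107 precursors summed over the PANDORA-seq libraries (y axis, log) against the reads that the loss of all miRNA reads would leave (x axis, log), with the line of equality and a dotted line at 3 expected reads; values below the range are drawn at its lower edge. Observed reads lie above the line for 99 precursors in LCD-fed and 89 in HCD-fed mice, but under 1 read was expected for 73 and 53 of the 107, where 1 read lies above it.

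Members of the mir-3473 family and mir-3470b carry sequences found in many genes. The mature sequence of mir-3470b occurred in 590 other genes on their own strand and in 504 on the other, that of mir-3473b in 359 and 393, that of mir-3473a in 147 and 136, and that of mir-3471-1 in 85 and 27. The 4 were the precursors with matches in 10 or more genes. The precursor mir-3473b (chromosome 10, 41670739 to 41670793, plus strand) had 0.724, 8.38, 2.13, 1.61 and 6.24 RPM in LCD traditional-seq and 0.876, 2.98, 1.12, 1.08 and 2.15 RPM in LCD PANDORA-seq. The groups overlap, and the difference of -0.64 ± 0.45 (SE, limma adjusted p = 0.207) was not called, while TMM scaling gave 1.01 (adjusted p = 0.0241). The precursor mir-3473a, in an intron of Syap1, had 0.124, 0.742, 0.337, 0.387 and 0.761 RPM and 0.987, 0.993, 0.122, 0.188 and 1.42 RPM in the same groups, with a difference of 0.20 ± 0.23 (SE, limma adjusted p = 0.443). Of the values of mir-3473a under 20 reads, 17 of 17 were not whole, and for mir-3473b 11 of 11. The sources used here do not state how the authors counted reads that match several places.

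Precursors inside other small RNAs did not move together. Beside mir-3535 and mir-3069, mir-5121 had 0.517, 0.984, 0.300, 0 and 1.04 RPM in LCD traditional-seq and 0.398, 0.722, 0.0979, 0 and 0.89 RPM in LCD PANDORA-seq, which overlap. Its difference was -0.14 ± 0.23 (SE, limma adjusted p = 0.61). In HCD-fed mice it had 0.177, 0.264, 0 and 0.268 RPM in traditional-seq and was at 0 in all 4 PANDORA-seq libraries. Its 9 traditional-seq reads make it at least 1.07-fold lower against a floor of 3 reads over the group, and the fitted difference of -0.23 ± 0.09 (SE) missed the threshold with the mouse as a block (limma adjusted p = 0.0639). It is a description, since without those 3 libraries above 0 mir-5121 would have had 8. The precursor mir-7684, in an exon of Cyp2d11, a cytochrome P450 gene, had mature sequences in copies elsewhere. It had 0.517, 0.197, 0.481, 0.596 and 0.261 RPM in LCD traditional-seq and 0, 0.541, 0.881, 0.67 and 0.356 RPM in LCD PANDORA-seq, with a difference of 0.06 ± 0.17 (SE, limma adjusted p = 0.778) that was not called.

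By position (GENCODE M21), 43 of the 107 precursors lay in an intron, 35 in an exon and 5 took up a whole intron of a gene on their own strand. Another 10 lay only antisense to a gene and 14 in no gene. Of the 11 precursors higher on RPM in LCD-fed mice, 6 lay in no gene, where the median difference was 0.30 over the 14, and 2 in introns, where the median was -0.25 over the 43 and 16 were lower. In HCD-fed mice no precursor outside genes was called higher (0 of 14) and 1 was lower. These are counts without a test. Reads of a host transcript and of a precursor inside its exon cannot be told apart in this table.

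By diet few precursors differed. In PANDORA-seq 1 of the 107 was called, and it was higher in HCD-fed mice, against 0.978% higher and 4.11% lower among the 511 RNAs tested. In traditional-seq 2 were called, both higher, against 2.48% and 4.01% of 524. The diet effect differed between the methods for 1, where it was higher in PANDORA-seq, against 0.382% higher and 1.91% lower. At an unadjusted p under 0.05 the numbers were 15 (14.0%), 20 (18.7%) and 17 (15.9%), against 22.1%, 21.4% and 14.7% of all RNAs tested. The PANDORA-seq call and 1 of the 2 traditional-seq calls belong to precursors that reached 9 libraries only through the HCD-fed group. These fits used TMM-scaled RPM, and fold changes are on the log2(scaled RPM + 1) scale. In whole liver RNA, fewer cells of a type and less of an RNA per cell cannot be told apart. Without LCD mouse 3 the PANDORA-seq count was 2, and without LCD mouse 5, HCD mouse 15 or HCD mouse 17 it was 0. The traditional-seq count was 0 without LCD mouse 1, 2, 3 or 5 or HCD mouse 15, 17 or 18, 1 without LCD mouse 4 and 5 without HCD mouse 16. The count for the difference between the methods was 3 without the PANDORA-seq library of LCD mouse 3 and 2 without that of HCD mouse 15.

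The precursor mir-7030 (chromosome 5, 115645573 to 115645632, plus strand) lies in an intron of Rab35, which encodes a GTPase of endosome recycling. In PANDORA-seq it had 0, 0.18, 0, 0 and 0 RPM in LCD-fed mice and 1.4, 0.382, 0.713 and 0.702 RPM in HCD-fed mice. All HCD libraries were above all LCD libraries, 14 reads against 1, and the fitted difference was 0.71 ± 0.15 (SE), a description for the reason just given, with a ratio of RPM of 19.8 and a 95% counting interval of 3.01 to 837. In traditional-seq it had 0, 0.197, 0.12, 0.119 and 0 RPM in LCD-fed and 0.0392, 0, 0.18 and 0.644 RPM in HCD-fed mice, which overlap, with a difference of 0.18 ± 0.13 (SE, limma adjusted p = 0.504). The fitted diet effect was larger in PANDORA-seq by 0.97 ± 0.20 (SE), which uses the same libraries. The PANDORA-seq call was lost without LCD mouse 5, HCD mouse 15 or HCD mouse 17, and when scaled by miRNA reads (adjusted p up to 0.144 over the alternatives run).

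The precursor mir-3474 (chromosome 2, 158638583 to 158638640, plus strand) lies in an exon of Actr5, a gene of the INO80 chromatin remodelling complex. In traditional-seq it had 0.517, 0.787, 0.36, 0.895 and 0.782 RPM in LCD-fed and 1.84, 0.793, 0.959 and 1.61 RPM in HCD-fed mice. The groups overlap at their edges, and it rose by 0.70 ± 0.17 (SE, limma adjusted p = 0.0376), a call that 12 of 15 alternatives ended, among them leaving out LCD mouse 1, 2, 3 or 5 or HCD mouse 15, 17 or 18 (adjusted p up to 0.329). In PANDORA-seq it had 0, 0, 0.294, 0.335 and 0.178 RPM and 0.28, 1.05, 1.43 and 0.936 RPM, with a difference of 0.67 ± 0.23 (SE, limma adjusted p = 0.0984) that was not called. The precursor mir-3473g (chromosome 2, 126902250 to 126902385, minus strand) lies in an intron of Sppl2a, which encodes an intramembrane protease. In traditional-seq it had 0, 0, 0.012, 0 and 0 RPM in LCD-fed and 0.118, 0.132, 0.14 and 0.215 RPM in HCD-fed mice. The groups did not overlap, with 0.2 reads against 8.33, at least 2.08-fold higher against a floor of 3 reads over the LCD group. The fitted difference was 0.24 ± 0.06 (SE), again a description, a call that 11 of 15 alternatives ended, among them leaving out any LCD mouse or HCD mouse 15, 17 or 18 (adjusted p up to 0.991).

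**Figure D5:**
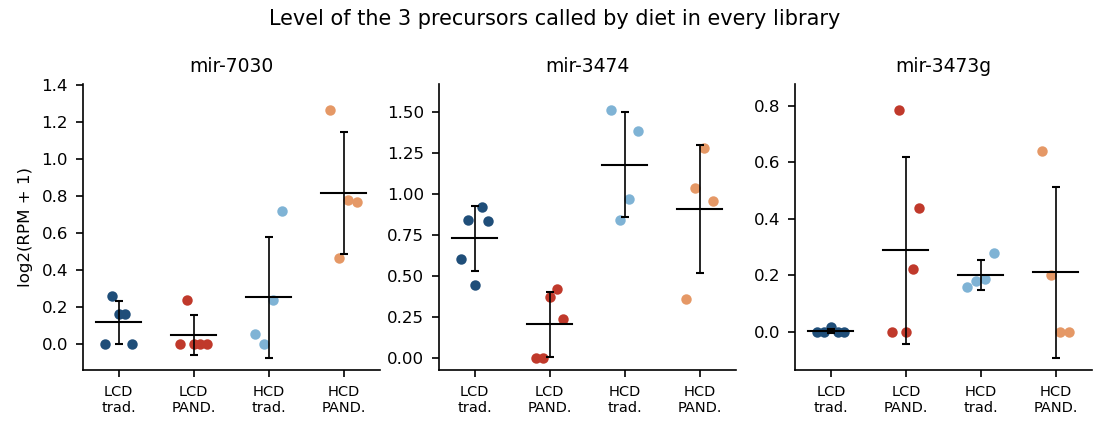
Level of mir-7030, mir-3474 and mir-3473g as log2(RPM + 1) in every library, by diet and method, with bars at the mean ± SD of the log2 values (n = 5 LCD, n = 4 HCD). In PANDORA-seq mir-7030 was higher in every HCD library than in any LCD library, and in traditional-seq mir-3473g was near 0 in the LCD libraries.

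The precursors with the largest change between the methods showed no diet call. The difference by diet in PANDORA-seq was -1.44 ± 0.62 (SE, limma adjusted p = 0.183) for mir-3470b, -1.24 ± 0.68 (SE, limma adjusted p = 0.305) for mir-3470a and -1.53 ± 0.43 (SE, limma adjusted p = 0.0655) for mir-3068. In traditional-seq it was 0.94 ± 0.36 (SE, limma adjusted p = 0.138) for mir-3470b and -0.56 ± 0.34 (SE, limma adjusted p = 0.417) for mir-3970. The diet effect in PANDORA-seq less that in traditional-seq was -2.41 ± 0.75 (SE, limma adjusted p = 0.116) for mir-3470b. It was -1.88 ± 0.85 (SE, limma adjusted p = 0.317) for mir-3470a and -1.78 ± 0.53 (SE, limma adjusted p = 0.101) for mir-3068. None of these was called, although each precursor had a call between the methods that differed by diet on 1 of the scales.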

How the data were processed

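The authors assigned reads of 15 to 50 bases with SPORTS1.1 (version 1.1.0, 1 mismatch allowed, mm10) and deposited RPM (reads per 1000000 reads of the library) for 1234 RNAs in 18 libraries. Empty cells (11673) were read as 0. Counts were not recovered, since only 67.6% to 81.7% of the values below 3 RPM came to a whole number of reads (tolerance 0.02), so no count test was run and the likelihood-ratio test of the authors was replaced.

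RNAs above 0 in at least 9 of 18 libraries were tested by limma (version 3.58.1, R 4.3.3, mean-variance trend, two-sided, Benjamini-Hochberg) on log2(RPM + 1), called at an adjusted p under 0.05. Methods were compared on RPM as deposited and on log2(RPM with miRNA reads as the total + 10), diets on TMM-scaled RPM (own code, trims of 30% and 5%). The 511 RNAs of the diet fit in PANDORA-seq leave out those at 0 in all of its libraries. The steps were tested on simulated data. Intervals and floors (3 reads over a group) cover counting error only.

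Both libraries of a mouse come from the same RNA by the study's methods, so the mouse number pairs them. Deviations of the pairs correlated with r of 0.0836 to 0.419, over 0.1 in 8 of 9 mice, and 5 of 9 matched their own mouse best. The fits carry no block, and the block was an alternative, as were other pseudocounts, scalings, filters, 1 fit over all 18 libraries and leaving out each library.

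The precursors, comparison lists and tests were chosen with earlier results of these data known. Named were the 6 precursors with the highest mean, up to 10 (of 14) called higher, the 6 largest falls in LCD-fed mice, those called by diet, those at the edge of the choice and those inside other annotated RNAs. Sequences are from RefSeq GRCm38.p6 and positions from GENCODE M21. Other steps used Python 3.11.15 with pandas 2.3.3 and numpy 2.4.6, and plots matplotlib 3.10.9.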

Additional observations from a re-analysis of the deposited data

Results flagged for a closer look

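In 17 of 93 groups of 4 or 5 libraries, over 24 named precursors, 1 library stood apart from the others by Dixon's 95% criterion. Chance alone picks about 1 in 20 such groups, and many of these groups hold values of 0 and a single read. Those above 1 RPM were mir-3535 at 100.4 RPM in HCD traditional-seq mouse 18 (others 70.6 to 73.5), mir-6240 at 15.5 RPM in LCD PANDORA-seq mouse 1 (others 0.541 to 3.85) and at 1.06 RPM in HCD traditional-seq mouse 16 (others 0.0599 to 0.196), mir-7224 at 2.25 RPM in HCD traditional-seq mouse 18 (others 0 to 0.353) and mir-3068 at 1.12 RPM in HCD PANDORA-seq mouse 15 (others 0.668 to 0.713). In LCD PANDORA-seq mouse 1, mir-3962 was at 0.928 RPM and mir-3105 at 0.398 RPM. In HCD PANDORA-seq mouse 16, mir-3105 was at 0.668, mir-7224 at 0.191 and mir-6539 at 0.0954 RPM. In HCD traditional-seq mouse 16, mir-3070-1 was at 0.198 and mir-3069 at 0.396 RPM. The rest were mir-7063 at 0.196 RPM in HCD traditional-seq mouse 15, mir-7030 at 0.18 RPM in LCD PANDORA-seq mouse 2, mir-3473g at 0.012 RPM in LCD traditional-seq mouse 3, mir-7224 at 0.196 RPM in LCD PANDORA-seq mouse 3 and mir-6539 at 0.534 RPM in LCD PANDORA-seq mouse 5.

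The diet effect on mir-7030 differed between the methods by 0.97 (limma interaction term), a call that 4 of 24 alternatives ended. It is a description, since mir-7030 reached 9 libraries only through the HCD PANDORA-seq group.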

How the results depend on the processing

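Alternative settings changed how many of the 107 precursors were called. In the order higher and lower in LCD-fed mice, then higher and lower in HCD-fed mice, the counts 11, 33, 4 and 18 on RPM became 27, 7, 11 and 9 with TMM scaling, 4, 7, 0 and 2 with at least 1 RPM asked (in at least 5 libraries, which leaves 16 and 12 precursors to test), and 4, 20, 0 and 10 with no filter, where more RNAs share the adjustment. Under TMM mir-3535 turned to 1.07 (LCD) and 0.94 (HCD), and in LCD-fed mice mir-3068 to 0.63, mir-3474 to 0.07 and mir-3473b to 1.01. Against miRNA reads, 33 higher in LCD-fed mice became 11 with the 1 RPM filter and 18 with no filter, 12 higher in HCD-fed mice became 3 with no filter, and 1 lower became 2 with a pseudocount of 100 and 0 with no filter. By diet in PANDORA-seq 1 call became 2 with a pseudocount of 0.1 RPM, 2 when scaled by miRNA reads, 0 with no filter and 13 in 1 fit over all 18 libraries. By diet in traditional-seq 2 calls became 0 on RPM as deposited, 0 when scaled by miRNA reads, 0 with the 1 RPM filter, 1 with no filter and 0 in 1 fit over all libraries. For the difference between the methods 1 call became 0 on RPM as deposited, 2 when scaled by miRNA reads and 0 with no filter. Beyond what the filters do by construction, the cause was not tested.

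Leaving out 1 library at a time gave 7 to 13 higher and 27 to 35 lower (LCD), and 2 to 7 higher and 14 to 20 lower (HCD). Against miRNA reads it gave 23 to 45 higher and 0 to 2 lower (LCD), and 3 to 24 higher and 0 to 5 lower (HCD). The diet counts ran from 0 to 2 in PANDORA-seq, 0 to 5 in traditional-seq and 1 to 3 for the difference between the methods. Against miRNA reads in HCD-fed mice mir-3105, at 0.09, ran from -0.12 (without PANDORA-seq mouse 16) to 0.16.

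With the mouse as a replicate block the counts were 12 and 36 (LCD), 4 and 21 (HCD), 36 and 0 against miRNA reads (LCD), 12 and 1 (HCD), and 1 for the difference between the methods. Among named precursors the block ended the HCD calls of mir-3105 and mir-5121, added mir-6539 in LCD-fed mice and changed no other call. Of the other values for named precursors, 2606 kept direction and call, 149 lost a call, 48 gained one, 16 moved and 6 turned.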
